A study of Mus musculus with 6 samples.

Results

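The genes described here are 10 known transcriptional targets of the tumour suppressor p53, namely Cdkn1a, Bbc3, Bax, Rps27l, Plk2, Sesn1, Zmat3, Aen, Gtse1 and Ei24. They were taken by gene symbol from the deposited table, and all 10 were found among its 4656 rows. Cdkn1a and Bbc3 were higher in microglia of Nus1 knockout mice, and the other 8 were lower; among the 4641 rows tested, 46.4% were called higher and 50.2% lower. The table came from RNA sequencing of 6 libraries of primary microglia, which are macrophages that live in the brain. Among the libraries, 3 came from Nus1fl/fl mice (Ctrl), whose Nus1 gene carries sites for Cre recombination, and 3 from mice with a conditional knockout of Nus1, labelled Nus1cKO (cKO). According to the labels, mice received tamoxifen at 100 mg/kg for 5 days in a row from postnatal day 28, and microglia were isolated by flow cytometry 30 days after the last injection; the labels attach this to both groups. The sources used here name neither the Cre driver nor the sex of the mice, and do not say whether Ctrl mice carried a Cre. A culture medium with serum is described as well, and whether the sequenced cells had been cultured is not stated.

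p53, encoded by Trp53 in the mouse, is a transcription factor that the ubiquitin ligase MDM2 keeps scarce in unstressed cells and that DNA damage and other stresses stabilise. Its binding site is a pair of similar decamers, and it binds there and raises genes that stop the cell cycle, start apoptosis through mitochondria, repair DNA or restrain growth. Several of these genes also answer to other factors. Cdkn1a and Bbc3 are textbook examples, since both can be induced without p53, the latter by the stress factor CHOP of the unfolded protein response.

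The table lists genes that the authors had called: each row's q-value is below 0.05, and the 4656 rows are 29.4% of the 15835 genes tested by the authors. A row therefore says that a gene had already been called, so the direction and size of each change are described below, and the number of members called is no result. A gene without a row is unknown here. The reads in these rows came to between 10786150 and 11033144 per library, a partial total that leaves the depth of the libraries unknown. Nus1, the targeted gene, was lower in each library labelled cKO, with 59.4, 60.9 and 59.2 TPM (a level scaled for gene length and library) in Ctrl and 14.1, 13.6 and 13.8 TPM in cKO.

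RefSeq promoter windows, reaching from 250 bases before to 50 bases after each annotated transcription start on build GRCm38.p6, were on hand for 9 of the 10 members, in 16 windows. Zmat3 had none. The p53 decamer, which reads the same on both strands in consensus form, was matched in 8 of the 16 windows and in 7 of the 9 genes; 9.55% of all 27025 genes with a window and 8.36% of all 32851 windows hold a match. The members are known p53 targets, so this share describes how they were chosen. The matched decamers are shown because they are the letters that p53 could recognise near these start sites, with the central bases in capitals. Rps27l is listed with both of its matches, and Aen with the single match that its overlapping windows share.
Cdkn1a, upstream match: ggaCTAGctt
Cdkn1a, downstream match: gaaCATGtct
Bax: aggCAAGctt
Rps27l, upstream match: gggCTTGctt
Rps27l, downstream match: agaCTTGtcc
Sesn1: aagCTTGttt
Aen: gggCTTGtcc
Gtse1: gggCTTGcct
Ei24: gggCATGccc
No match was found in the windows of Bbc3 and Plk2, which says only that these letters are not in those windows.

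Cdkn1a was the only member with a full site, meaning 2 decamers separated by 0 to 13 bases. Its decamers were 12 bases apart, from 73 to 42 bases before the more upstream of its 2 annotated starts. Only decamers that fit the consensus at every base were counted. A decamer 1 base off the consensus, tgacatgttc, directly follows the downstream one and is left in lower case. Such near matches also occur in windows of other members and were not counted towards full sites. A full site was present in 24 of all 32851 windows, or 0.0731%, and in 20 of 27025 genes. This window is shown with the decamers in capitals, beside those of Bax, a gene that was lower in cKO, and of Ei24, whose decamer ends 1 base before the start site.
Cdkn1a, chr17:29090729-29091028, plus strand: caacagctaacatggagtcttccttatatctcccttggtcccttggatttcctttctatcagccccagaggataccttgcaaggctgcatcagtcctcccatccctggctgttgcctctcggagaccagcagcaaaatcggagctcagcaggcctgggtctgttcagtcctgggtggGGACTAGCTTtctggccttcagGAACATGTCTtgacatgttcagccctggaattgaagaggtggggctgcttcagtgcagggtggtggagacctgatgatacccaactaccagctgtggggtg
Bax, chr7:45466849-45467148, minus strand: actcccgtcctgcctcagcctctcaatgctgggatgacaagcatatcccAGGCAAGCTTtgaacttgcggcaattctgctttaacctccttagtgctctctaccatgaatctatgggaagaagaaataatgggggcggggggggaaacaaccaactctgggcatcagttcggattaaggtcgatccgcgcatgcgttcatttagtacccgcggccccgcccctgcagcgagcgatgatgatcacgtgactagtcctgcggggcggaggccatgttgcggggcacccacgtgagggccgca
Ei24, chr9:36797285-36797584, minus strand: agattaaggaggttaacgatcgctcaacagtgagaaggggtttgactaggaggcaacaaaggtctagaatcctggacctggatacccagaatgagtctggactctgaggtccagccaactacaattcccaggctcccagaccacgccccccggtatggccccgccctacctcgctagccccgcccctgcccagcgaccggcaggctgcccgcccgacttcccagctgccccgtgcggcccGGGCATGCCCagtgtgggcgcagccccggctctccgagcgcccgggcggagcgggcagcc
Other motifs were searched in the same windows on both strands. TGATGNAA, the C/EBP-ATF composite element that ATF4 binds, was in 0 of the 16 windows and in 3.97% of all windows. The cell-cycle element TTTGAA was in the windows of 2 members, Bax and Aen, and in 17.9% of all windows; in Bax it overlapped the p53 decamer. CCAAT was in 8 windows of 5 members, including both of Gtse1, and in 37.4% of all windows.

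**Figure D1:**
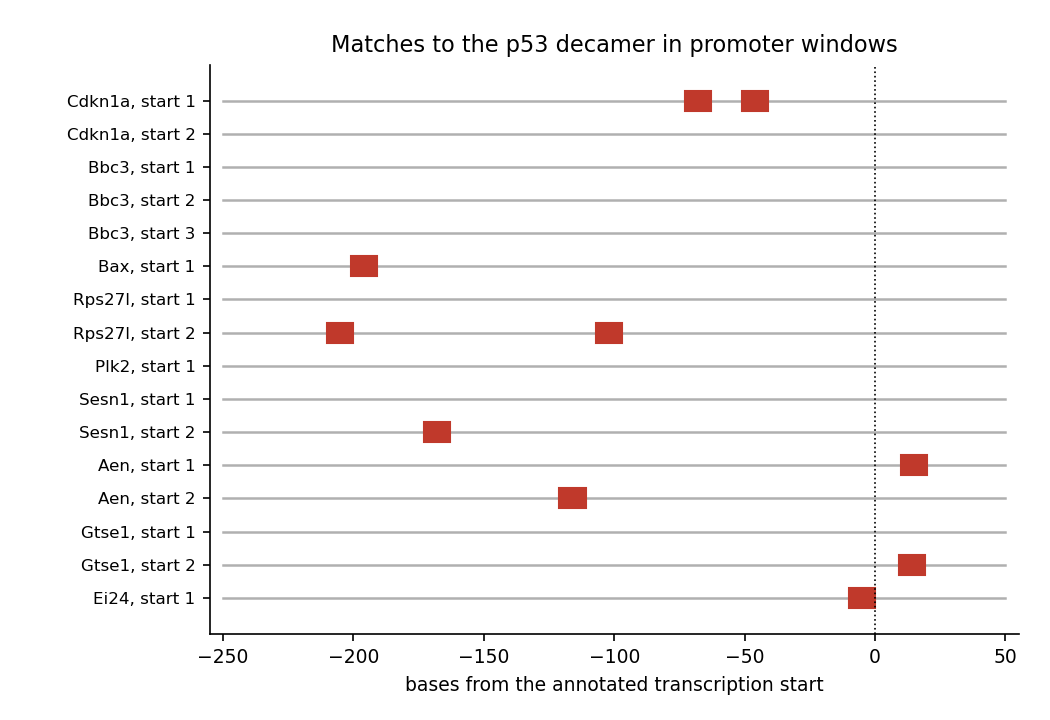
Positions of p53 decamer matches (red boxes, each 10 bases wide) in the 16 promoter windows of 9 p53 target genes. The horizontal axis gives bases from the annotated transcription start (dotted line) and each row is one annotated start; Cdkn1a has the closely spaced pair, and Bbc3 and Plk2 have no box.

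Cell-cycle members went in both directions. Cdkn1a (ENSMUSG00000023067, chromosome 17, 29309953 to 29319696, plus strand, mm39) encodes p21, which inhibits cyclin-dependent kinases and halts cells before S phase. It stood at 72.0, 72.8 and 75.6 TPM in the Ctrl libraries and at 102, 103 and 100.1 TPM in the cKO libraries. All cKO libraries lay above all Ctrl libraries, and the spread within a group was small beside the gap. The means were 73.45 ± 1.86 TPM in Ctrl and 101.7 ± 1.59 TPM in cKO (SD, n = 3 each). The edgeR log2 fold change of cKO over Ctrl was 0.48 ± 0.03 (SE), a fold of 1.40, with an adjusted p of 5.8e-15 in edgeR's quasi-likelihood test.

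Gtse1 (ENSMUSG00000022385, chromosome 15, 85743868 to 85760774, plus strand) encodes a microtubule-associated protein made in S and G2 phase, and its human counterpart can move p53 out of the nucleus. Its level was 40.8, 40.2 and 42.5 TPM in Ctrl and 34.3, 34.9 and 33.7 TPM in cKO. The groups did not overlap, and Gtse1 fell by 0.25 ± 0.04 on the log2 scale (SE, edgeR adjusted p = 2.4e-06). Plk2 (ENSMUSG00000021701, chromosome 13, 110531578 to 110537378, plus strand), a polo-like kinase that acts in centriole duplication and can phosphorylate alpha-synuclein, was at 68.9, 60.5 and 67.5 TPM in Ctrl and at 55.1, 54.9 and 56.6 TPM in cKO. It fell by 0.23 ± 0.04 (SE, edgeR adjusted p = 3.5e-06). Ctrl replicate 2 was the Ctrl library nearest to the cKO group for Plk2, and the cKO libraries varied less than the Ctrl libraries.

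Among members that promote apoptosis, Bbc3 rose and Bax, Aen and Ei24 fell. Bbc3 (ENSMUSG00000002083, chromosome 7, 16042307 to 16052259, plus strand) encodes PUMA, a BH3-only protein that neutralises the protective members of the BCL2 family. It was a low-level transcript, with 7.69, 8.46 and 7.50 TPM in Ctrl and 11.6, 12.3 and 11.5 TPM in cKO. The estimated counts behind these values were 122, 132 and 123 reads in Ctrl and 184, 200 and 190 reads in cKO. The groups did not overlap, and the log2 fold change was 0.62 ± 0.10 (SE, edgeR adjusted p = 2.4e-06), with the largest standard error of the 10 members.

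Bax (ENSMUSG00000003873, chromosome 7, 45111119 to 45116344, minus strand) encodes a protein that perforates the outer mitochondrial membrane once it is activated. Its level was 297, 312 and 309 TPM in Ctrl and 220.3, 216 and 238 TPM in cKO. Every cKO library was below every Ctrl library, and the means were 306 ± 8.03 and 225 ± 11.5 TPM (SD, n = 3 each). Bax fell by 0.44 ± 0.04 on the log2 scale (SE, edgeR adjusted p = 5.3e-13), a fold of 0.740.

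Aen (ENSMUSG00000030609, chromosome 7, 78545675 to 78560957, plus strand) encodes the apoptosis-enhancing nuclease, an exonuclease of the nucleus. It was at 14.0, 14.7 and 13.8 TPM in Ctrl and at 9.83, 9.95 and 11.1 TPM in cKO. The groups did not overlap, and Aen fell by 0.45 ± 0.05 (SE, edgeR adjusted p = 5.5e-09), the largest decrease of the 10. Ei24 (ENSMUSG00000062762, chromosome 9, 36690449 to 36708630, minus strand), an endoplasmic reticulum membrane protein needed for autophagy, was at 54.9, 57.0 and 60.3 TPM in Ctrl and at 49.3, 56.0 and 49.7 TPM in cKO. It was the member whose groups overlapped, because cKO replicate 2 lay above Ctrl replicate 1. Ei24 fell by 0.14 ± 0.04 (SE, edgeR adjusted p = 0.0113), and this call was lost without Ctrl replicate 3 (adjusted p = 0.177), without cKO replicate 1 (adjusted p = 0.112) or without cKO replicate 3 (adjusted p = 0.0821). It was also lost with RLE size factors (adjusted p = 0.0951), upper-quartile scaling (adjusted p = 0.156) and DESeq2 (adjusted p = 0.305).

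The remaining members, which act in nutrient sensing, RNA stability and the ribosome, were all lower in cKO. Sesn1 (ENSMUSG00000038332, chromosome 10, 41686570 to 41784432, plus strand) encodes a sestrin, a protein that restrains the growth kinase mTORC1. It was at 16.4, 15.5 and 17.2 TPM in Ctrl and at 13.7, 12.1 and 13.6 TPM in cKO, with no overlap, and fell by 0.33 ± 0.07 (SE, edgeR adjusted p = 7.2e-05). Zmat3 (ENSMUSG00000027663, chromosome 3, 32388941 to 32419814, minus strand) encodes a zinc finger protein that binds RNA. It had the lowest level of the 10, with 5.67, 5.82 and 5.86 TPM in Ctrl and 4.92, 4.62 and 5.15 TPM in cKO. The groups stayed apart, and Zmat3 fell by 0.22 ± 0.06 (SE, edgeR adjusted p = 0.0030); DESeq2 gave -0.19 and did not call it (adjusted p = 0.105).

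Rps27l (ENSMUSG00000036781, chromosome 9, 66851906 to 66856804, plus strand) encodes a close relative of ribosomal protein S27, and the human protein binds MDM2. Its level was 1086, 1047 and 1090.2 TPM in Ctrl and 919.9, 916 and 892 TPM in cKO, the highest of the 10 members in both groups. In counts scaled to the reads in the rows (CPM, TMM-scaled), it was at 199, 182 and 209 in Ctrl and at 159.8, 179.6 and 158.7 in cKO. cKO replicate 2 was therefore close to Ctrl replicate 2 in counts and well below it in TPM, and the groups did not overlap on either scale. The fall was 0.25 ± 0.04 on the log2 scale (SE, edgeR adjusted p = 3.9e-06). The call was kept only narrowly with DESeq2 (adjusted p = 0.0398) and with robust dispersion estimates in edgeR (adjusted p = 0.0437). Near-identical copies such as Rps27 and processed pseudogenes can share reads with Rps27l, so its value carries that uncertainty.

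**Figure D2:**
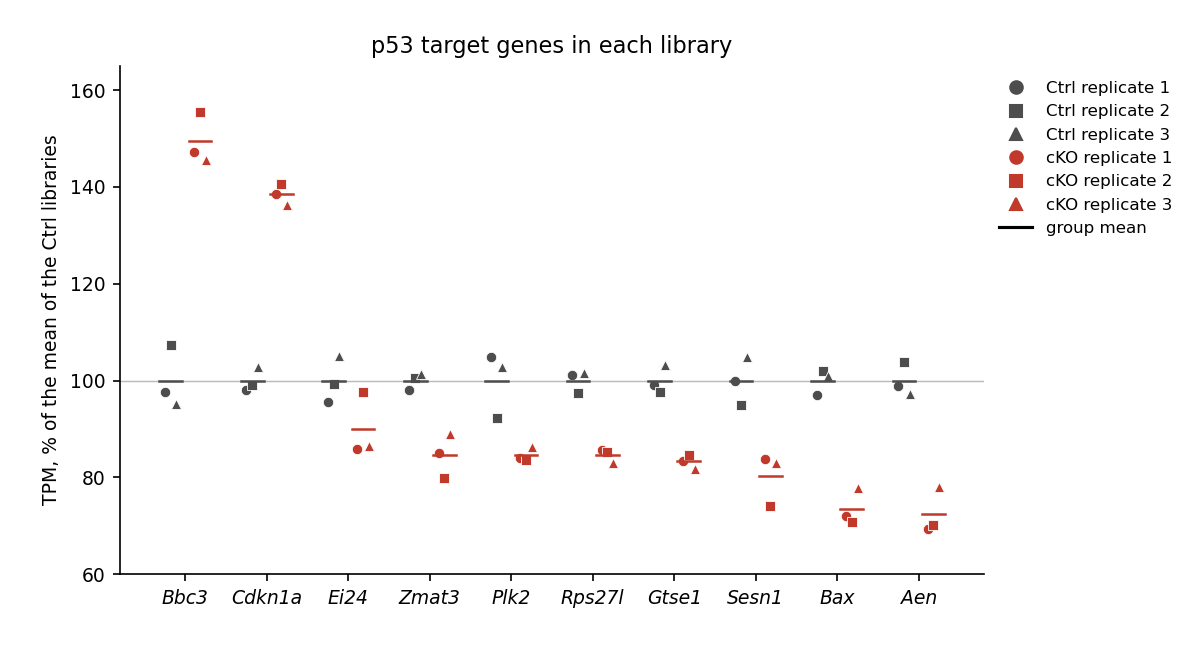
Level of the 10 p53 target genes in each library, as a percentage of the mean TPM of the 3 Ctrl libraries (vertical axis), ordered by log2 fold change. Points are libraries, with the shape giving the replicate number and the colour the group, and lines are group means; Bbc3 and Cdkn1a lie above the Ctrl libraries, and Ei24 is the gene whose groups overlap.

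In all, 2 members rose and 8 fell, and 96.7% of all tested rows were called in one direction or the other, because the table lists called genes only. The median log2 fold change was -0.24 over the 10 members and -0.08 over all tested rows. In TPM as in CPM, 9 of the 10 members had groups that did not overlap, against 96.7% of all tested rows in CPM, so this count does not set the members apart. An exact two-sided permutation test of log2 CPM gave p = 0.1 for each of those 9, the smallest value that 3 against 3 libraries allow, and p = 0.2 for Ei24. All 10 directions were kept in each of the 19 alternative settings.

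The authors' deposited table gave log2 values of 0.44 for Cdkn1a and 0.57 for Bbc3, and between -0.49 for Aen and -0.18 for Ei24 for the 8 members that were lower. The authors' size factors rest on all their genes and put the values a little lower than TMM factors from the deposited rows, by about the same amount for each member. With DESeq2 on these rows, 58.9% of all calls were higher in cKO, beside 48.0% in edgeR with TMM. The labels call the replicates biological without naming the animals behind them; p-values therefore reflect how far these libraries vary. Genes of GENCODE M21 without a row overlap Cdkn1a and Ei24 on the opposite strand and Bax and Sesn1 on the same strand, and the strandedness of the libraries is not stated. In bulk RNA, fewer expressing cells and less RNA per cell cannot be told apart.

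**Figure D3:**
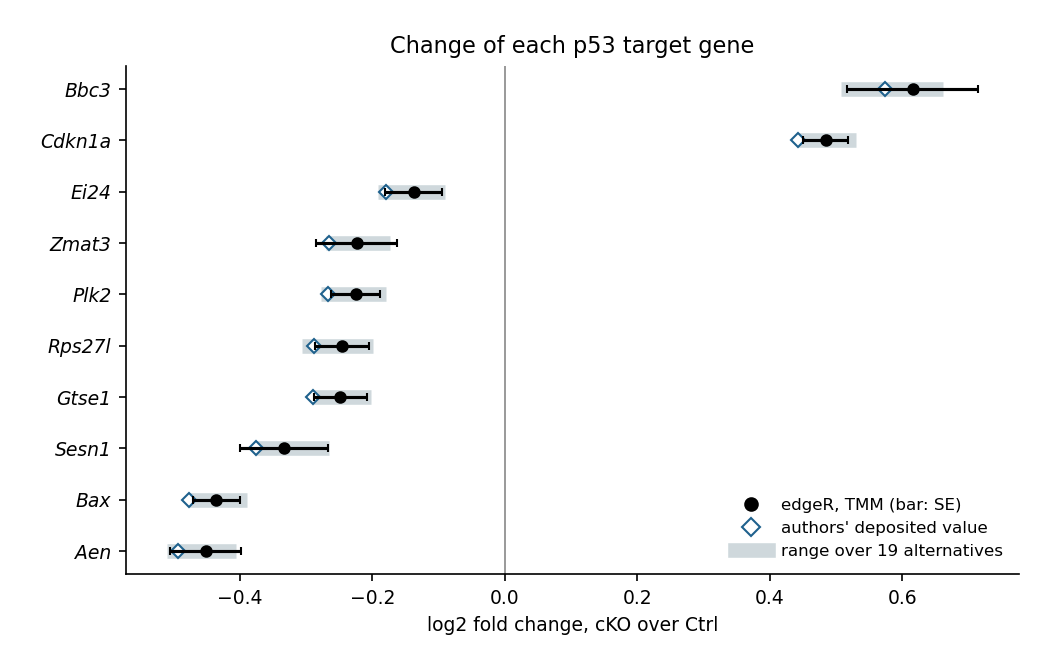
Log2 fold change of cKO over Ctrl for each p53 target gene. Black points are edgeR values with TMM scaling and bars their standard errors, open diamonds are values of the authors' deposited table, and grey bars span 19 alternative settings; Cdkn1a and Bbc3 stay above 0 and the other 8 below 0 in all of them.

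The members differed widely in size of change relative to other called genes of the same direction. The increase of Bbc3 was larger than 76.6% of the increases called by edgeR and that of Cdkn1a larger than 65.5%, counting each gene itself. Among the decreases, Aen stood at the 92.7th percentile and Bax at the 91.5th. Ei24 stood at the 20.6th percentile. The median of all called increases was 0.37 and that of all called decreases -0.21.

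**Figure D4:**
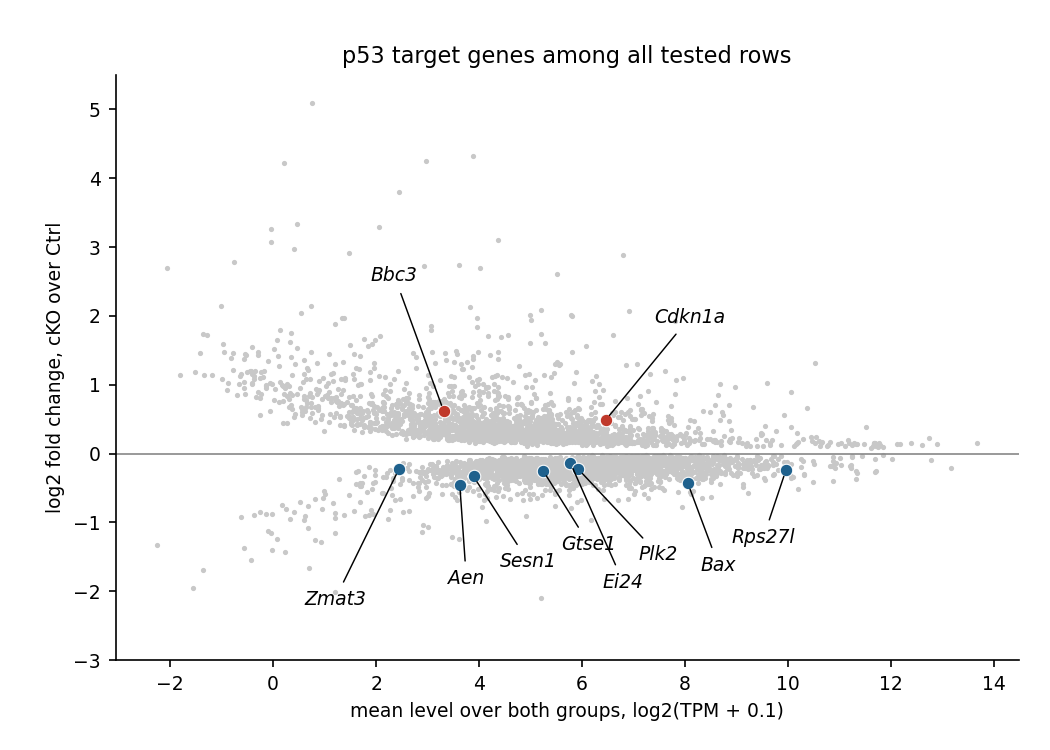
Log2 fold change of cKO over Ctrl against mean level, log2(TPM + 0.1), for all 4641 tested rows (grey) with the 10 p53 target genes labelled (red, higher; blue, lower). The empty band around 0 reflects a table that lists called genes only; Bbc3 and Cdkn1a lie within the upper cloud and the 8 lower members within the lower one.

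A ratio of 2 members within a library does not depend on scaling between libraries. The TPM of Cdkn1a divided by that of Bax was 0.242, 0.233 and 0.244 in Ctrl and 0.462, 0.477 and 0.421 in cKO. The groups were far apart, and the ratio was 1.89 times as high in cKO. Bbc3 divided by Bax was 0.0257 ± 0.0014 in Ctrl and 0.0525 ± 0.0042 in cKO (SD, n = 3 each), 2.04 times as high. Ratios of Cdkn1a and of Bbc3 to each of Bax, Aen, Rps27l and Ei24, 8 in all, were between 1.54 and 2.07 times as high in cKO. Their direction follows from choosing members that rose over members that fell, so they describe sizes and add no test.

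The order of the members by level changed little. In Ctrl it ran from Rps27l (1074 TPM) and Bax (306 TPM) through Cdkn1a (73.45 TPM), Plk2 (65.6 TPM), Ei24 (57.4 TPM) and Gtse1 (41.1 TPM) to Sesn1 (16.4 TPM), Aen (14.2 TPM), Bbc3 (7.88 TPM) and Zmat3 (5.78 TPM). The libraries of neighbours in this order did not overlap in Ctrl. In cKO Bbc3, at 11.8 TPM, passed Aen, at 10.3 TPM, and its range overlapped that of Sesn1, at 13.1 TPM. Plk2, at 55.5 TPM, and Ei24, at 51.7 TPM, also overlapped there.

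The gene encoding p53 itself hardly differed. Trp53 was at 254.1 ± 3.10 TPM in Ctrl and 239.8 ± 6.39 TPM in cKO (SD, n = 3 each), a log2 fold change of -0.07 ± 0.02 (SE, edgeR adjusted p = 0.0234). This call was lost in 8 of 19 alternatives, among them RLE, upper-quartile and DESeq2 scaling, and the value ran from -0.11 to -0.02 over the scalings. Of 30 genes listed as p53 and its regulators, 14 had a row, or 46.7%, beside 29.4% of all genes the authors tested. Among these 14, 2 rose and 12 fell, and 50.2% of all tested rows were called lower. Their median was -0.12, beside -0.08 over all tested rows. With RLE, upper-quartile scaling or DESeq2, 6 fell. The deubiquitinase Usp10, which stabilises p53, fell by 0.27 ± 0.03 and the arginine methyltransferase Prmt5 by 0.27 ± 0.03. The deubiquitinase Usp7 fell by 0.15, the damage kinase Atm by 0.17 and the checkpoint kinase Chek1 by 0.20. Pml, the scaffold of nuclear bodies, which interferon also induces, rose by 0.85 ± 0.06, from 9.24 to 16.6 TPM. Mdm2, Mdm4 and Ppm1d, the feedback inhibitors of p53, had no row.

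Other known p53 targets went in both directions. Of 64 further targets on 3 lists, 22 had a row, or 34.4%, beside 29.4% of all genes the authors tested. Among these 22, 15 rose and 7 fell, and their median was 0.34 on the log2 scale. Of all tested rows, 46.4% were called higher and 50.2% lower. Without genes that are also on the list of ATF4 and CHOP targets, 12 rose and 7 fell, with a median of 0.30.

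Among 20 targets of growth arrest and feedback, 4 had a row, or 20%, beside 29.4% of all genes the authors tested. Gadd45a, a stress sensor that slows the cell cycle, rose by 1.30 ± 0.12; its level was 7.20 ± 1.07 TPM in Ctrl and 17.6 ± 1.13 TPM in cKO (SD, n = 3 each). The cyclin Ccng2 rose by 0.69 and Pml as above, and the mitotic protein Ckap2 fell by 0.32. Among 16 targets in cell death, 6 had a row, or 37.5%, of which 4 rose and 2 fell. Shisa5, a membrane protein that promotes caspase-dependent death, rose by 0.59 ± 0.04, and Bnip3l, a mitophagy receptor, by 0.28. The apoptotic caspase Casp6 rose by 0.38 and the decoy receptor Tnfrsf23 by 0.30. The ferrireductase Steap3 fell by 0.33. Siva1 fell by 0.17, and that call was lost without Ctrl replicate 1, without cKO replicate 3 and with RLE, upper-quartile or DESeq2 scaling.

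Among 28 targets in DNA repair and metabolism, 12 had a row, or 42.9%, beside 29.4% of all genes the authors tested. Of these 12, 8 rose and 4 fell. The growth factor Gdf15 rose by 1.45 ± 0.11, the sestrin Sesn2 by 1.23 ± 0.08 and Ddit4, an inhibitor of mTORC1, by 0.98 ± 0.09; all of these are also on the ATF4 and CHOP list. The tetraspanin Cd82 rose by 0.41 and the polyamine acetyltransferase Sat1 by 0.30. Tigar, which lowers glycolytic flux, fell by 0.42 ± 0.04, from 34.4 to 24.8 TPM.

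Paralogs of the members went with them in some cases and against them in others. Sesn2 was at 7.68 ± 0.318 TPM in Ctrl and 17.9 ± 2.03 TPM in cKO (SD, n = 3 each), while Sesn1 was lower in cKO. Of 26 listed sestrin, GATOR and mTORC1 genes, 6 had a row, or 23.1%, beside 29.4% of all genes the authors tested. Sesn2 rose and Mios (-0.23), Seh1l (-0.22), Rraga (-0.16) and Sec13 (-0.14) fell. Of those that fell, DESeq2 called 1 lower. Of 18 listed paralogs 7 had a row, or 38.9%, and 4 rose and 2 fell. Among all tested rows, 46.4% were called higher and 50.2% lower. Isg20, an antiviral exonuclease related to Aen, rose by 2.70 ± 0.12, from 4.15 to 27.8 TPM, and the related Isg20l2 fell by 0.10, a call lost with RLE, upper-quartile or DESeq2 scaling. The inhibitor Cdkn1b, which encodes p27, rose by 0.42 ± 0.07, in the direction of Cdkn1a. Plk1, the mitotic relative of Plk2, fell by 0.26, and Zmat1 rose by 0.75 from 1.56 TPM. Bak1, the effector related to Bax, was at -0.08 and did not pass (edgeR adjusted p = 0.0962).

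Genes that share the mitochondrial death pathway with Bbc3 and Bax were mixed. Of 27 listed, 11 had a row, or 40.7%, beside 29.4% of all genes the authors tested. Among these 11, 6 rose and 4 fell, with a median of 0.21. Of all tested rows, 46.4% were called higher and 50.2% lower. The protective members Bcl2l1 (0.29 ± 0.03), Bcl2l2 (0.47 ± 0.05) and the caspase inhibitor Xiap (0.21 ± 0.03) rose, and so did the BH3-only gene Bmf (0.65 ± 0.07) and Casp8 (0.29 ± 0.04). Cytochrome c, encoded by Cycs and released through pores made by BAX, fell by 0.42 ± 0.02, from 209 to 155 TPM.

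The cell-cycle lists around Cdkn1a and Gtse1 were mostly lower. Of 22 genes of G1 control, 10 had a row, or 45.5%, beside 29.4% of all genes the authors tested. Among these 10, 3 rose and 7 fell, beside 50.2% of all tested rows called lower. With upper-quartile scaling or DESeq2, 4 fell. Cyclins Ccne1 and Ccne2 fell by 0.32 and 0.34, and Pcna by 0.23, while Rb1 rose by 0.29 and E2f2 by 0.41. Of 30 genes of G2 and mitosis, 25 had a row, or 83.3%, beside 29.4% of all genes the authors tested. Among these 25, 1 rose and 24 fell, and 50.2% of all tested rows were called lower. With DESeq2 20 fell. Their median was -0.23, close to the -0.25 of Gtse1 and also to the -0.21 of all called decreases. Cdc20 fell by 0.48, Mybl2 by 0.48, Ccnb1 by 0.30 and Kif20a by 0.28. Mki67, a marker of dividing cells, was at 102 ± 0.984 TPM in Ctrl and 86.3 ± 1.70 TPM in cKO (SD, n = 3 each).

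Of 24 listed genes of DNA damage signalling, 13 had a row, or 54.2%, beside 29.4% of all genes the authors tested. Among these 13, 1 rose and 12 fell, with a median of -0.20, and 50.2% of all tested rows were called lower. The number of lower calls depended on the setting. DESeq2 and upper-quartile scaling each kept 8 of them, and RLE kept 9. The histone variant H2ax fell by 0.37 ± 0.04, the checkpoint adaptor Clspn by 0.23 and the single-strand binding protein Rpa1 by 0.21, and Xrcc5, of the end-joining machinery, rose by 0.24. Of 16 ATF4 and CHOP genes, 14 had a row, or 87.5%, beside 29.4% of all genes the authors tested. All 14 rose, with a median of 1.11, and 46.4% of all tested rows were called higher. Ddit3, which encodes CHOP, rose by 2.01 ± 0.08, from 20.5 ± 3.28 to 89.5 ± 1.88 TPM (SD, n = 3 each), Trib3 by 2.60 ± 0.05 and Atf4 by 0.85 ± 0.02. The part of these genes in the changes of Cdkn1a and Bbc3 was not tested.

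**Figure D5:**
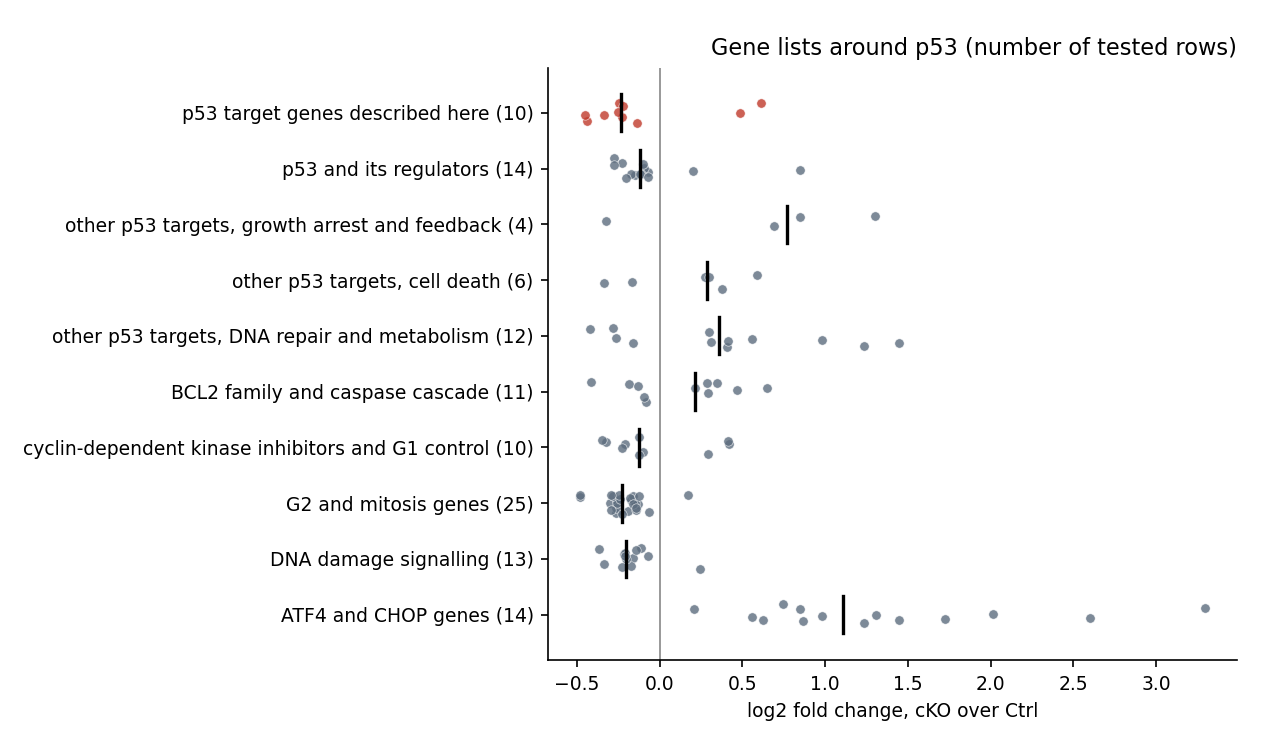
Log2 fold change of cKO over Ctrl for the 10 p53 target genes (red) and for the tested rows of 9 gene lists around p53 (grey); points are genes, spread vertically for display, black bars are medians, and numbers in parentheses are tested rows. ATF4 and CHOP genes all lie above 0, G2 and mitosis genes lie below 0 except for Cdc25b, and the 10 members have 2 points above 0.

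The annotation that the authors deposited with each row assigns 35 rows to the KEGG p53 signalling pathway, 7 of them members. Of the 35, 12 rose and 23 fell, and their median was -0.14 on the log2 scale. GO processes by p53 class mediator were assigned to 71 rows, 5 of them members. Of these 71, 34 rose and 36 fell, with a median of -0.07. Among all tested rows, 46.4% were called higher and 50.2% lower, with a median of -0.08. In the KEGG pathway the largest increases were those of Gadd45a and Sesn2, described above. The largest decreases outside the members were those of the growth factor Igf1 (-0.58 ± 0.03), the ubiquitin ligase Siah1b (-0.49 ± 0.08) and the ribonucleotide reductase subunit Rrm2 (-0.44 ± 0.03), which were named after their values were seen.

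Markers had a row only where the authors called them, as they did 29.4% of all genes they tested. A marker without a row is unknown here and says nothing about whether its cells were present. The microglial label comes from the sample titles. Of 10 listed microglial markers 5 had a row, and these moved in both directions. Itgam rose by 0.73, and C1qa fell by 0.70, Cx3cr1 by 0.52, Trem2 by 0.11 and Csf1r by 0.09. The summed level of these 5 was 476 to 508 TPM in Ctrl and 461 to 477 TPM in cKO. Tmem119 and P2ry12, which define microglia, had no row, so their levels are unknown here. The summed level of 3 of 8 markers of border-associated macrophages was 60.2 to 75.9 TPM in Ctrl and 61.8 to 67.4 TPM in cKO, within which Mrc1 fell by 1.14, Ms4a7 fell by 0.90 and Siglec1 rose by 0.96. For monocytes 2 of 7 markers had a row, at 2759 to 2909 TPM in Ctrl and 2212 to 2464 TPM in cKO, nearly all from S100a4. Aldh1l1 of astrocytes was at 0.42 TPM or less and Pecam1 of endothelium at 0.78 TPM or less in each library, and Cnp of oligodendrocytes was at 22.2 to 28.0 TPM. Neurons, neutrophils and lymphocytes had 0 marker rows, which leaves the levels of those markers unknown. The part of other cells in the changes of the 10 members was not tested.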

How the data were processed

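RNA sequencing of microglia was deposited as 1 table for the 6 libraries, with groups taken from the titles. Bowtie2 2.4.5, DESeq2 1.34.0 and build mm39 were used, per the submitters' processing notes; no source used here names the read counter. Per the file headers, the deposited table gives each gene an estimated count of reads per library, not normalized, beside FPKM, TPM and a normalized count. The latter deposited signal is the estimated count raised to a whole number, over a size factor for that library. The authors' log2 ratio of cKO over Ctrl, p-value and q-value are given per gene, per the file headers. The 8 columns of group averages by the authors were left out.

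The q-values equal a Benjamini-Hochberg adjustment of the p-values over 15835 genes, and all 4656 rows have a q-value under 0.05. The design had assumed a table of all genes with whole counts. Here 11.1% of the counts were not whole (tolerance 1e-06), so they were rounded, and p-values were adjusted over 15835 genes, with genes without a row taken to have larger p-values. Scaling and spread rest on rows selected on the comparison itself. Differences were tested in edgeR 4.0.16 under R 4.3.3 by quasi-likelihood, after TMM scaling and filterByExpr, which left 4641 rows, at an adjusted p of 0.05. Alternatives used DESeq2 1.42.0, limma 3.58.1 on voom weights or on log2(FPKM + 1), other scalings and filters, a replicate block, and each library left out. The fit was tested on simulated data. Remaining steps used Python 3.11.15, pandas 2.3.3, NumPy 2.4.6, SciPy 1.17.1 and matplotlib 3.10.9.

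The members, the gene lists and the tests were chosen with earlier results of these data known. Genes were named by a fixed rule: the 10 members, Nus1, up to 6 called genes of each list with the smallest p, all paralogs with a row, and the 5 genes closest to Cdkn1a. Trp53, other genes named beside a list, and those said to be so were named outside the rule, after their values were seen. Libraries of a group were not copies of one another: chi-square per gene between pairs ran from 1.31 to 2.18.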

Additional observations from a re-analysis of the deposited data

How the results depend on the processing

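All 10 members kept their direction in each of 19 alternatives. The 2 members that rose kept their calls throughout. Over the members and Nus1, 202 of 209 values kept their side of the threshold and 7 lost it, 6 of Ei24 and 1 of Zmat3, and 0 changed sign. DESeq2 called 1510 rows lower, beside 2332 in edgeR with TMM, and 2168 higher, beside 2155; the cause was not tested. Higher calls were 53.5% of all calls with RLE and 55.5% with upper-quartile scaling. Deviations of same-numbered libraries from their group means correlated at 0.02, -0.08 and -0.04 over 4508 genes. Pairs with different numbers ran from -0.09 (Ctrl 1 with cKO 3) to 0.11 (Ctrl 2 with cKO 3). The labels do not say whether a number marks a shared litter or day, and these values cannot settle it. With the replicate block 2155 rows were higher and 2296 lower, Ei24 was at -0.14 (adjusted p = 0.0136), and no call of a member changed. Leaving out 1 library at a time moved Rps27l between -0.31 and -0.20 and Plk2 between -0.28 and -0.19. Counts limit Bbc3 most, with 122 to 200 reads per library.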

Other observations

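By Euclidean distance of log2 CPM from the Ctrl mean over the 6 libraries, the genes most like Cdkn1a among 4424 with a mean of at least 5 CPM were P4ha1 (distance 0.035), a subunit of the collagen prolyl hydroxylase, Txnip (0.050), an inhibitor of thioredoxin, Etv1 (0.054), a transcription factor, Slc3a2 (0.054), a chain of the cystine-glutamate exchanger, and Csgalnact2 (0.057), a chondroitin synthesis enzyme. Their log2 fold changes ran from 0.47 to 0.50, around the 0.48 of Cdkn1a. This is a description over 6 libraries in 2 groups.

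Several members lay beside genes that changed differently, by the order of protein-coding genes in RefSeq (GRCm38.p6). Aen, which fell, is followed by its relative Isg20, which rose by 2.70. Bax, which fell, lies between Ftl1, the ferritin light chain, at -0.22 and Dhdh at 0.23. Cdkn1a, which rose, lies between the splicing factor Srsf3 at -0.33 and Rab44 at 0.75. Rps27l is flanked by Rab8b at -0.29 and Lactb at -0.45, both of which fell as it did.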
